A study of Mus musculus with 16 samples.

Results

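RNA of adult mouse testis that was captured by the antibody J2 was compared with the RNA that the antibody left behind in the flow-through. J2 is a mouse monoclonal antibody (IgG2a, kappa chain) that recognises the RNA double helix and not a given sequence. The comparison rests on 4 libraries, 2 of the J2 fraction and 2 of the flow-through, out of 16 in the series. Genes were included when they reached a value of 10 in at least 2 of these 4 libraries, which 4950 of the 35920 genes in the deposited table did. The values are on the authors' normalized count scale.

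The adult testes are labelled wild type, with the strain given as unknown and no age beyond adult. The other 12 libraries, 3 per group, are of testis at postnatal day 18 (P18) from C57BL/6 x 129S4/SvJae mice, wild type or Dcr-/- (Dicer knock-out), again as J2 and flow-through. They enter here through the estimate of the spread between libraries, and their values are given beside those of the adults where they bear on a result. All the groups share J2 purification by the same protocol and strand-specific libraries from a low-input kit (NuGEN Ovation SoLo). The labels describe the flow-through as RNA from which ribosomal and double-stranded RNA had been removed. The table's header gives 1 shared code to a flow-through and a J2 library, but whether the replicates are different animals is not stated. The p-values thus reflect only how these samples vary, and that variation may be technical.

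Double-stranded RNA arises in cells where a transcript folds back on itself, often through inverted repeats, or where RNAs from both strands of a locus pair. Mitochondria are a well-known source, since both strands of their circular genome are transcribed along nearly their full length and the light-strand RNA is mostly degraded. In the testis, spermatids store many mRNAs for later translation while the chromatin is packed with protamines, and transcription in meiotic and haploid cells is broad and includes many non-coding and antisense RNAs. In whole tissue, fewer cells of a type and less RNA per cell cannot be told apart.

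The tissue label was checked against marker genes. Prm1 and Tnp1, which encode a protamine and a transition protein of the elongating spermatid, were detected in all 4 adult libraries (Prm1 at 319 to 855, Tnp1 at 95.2 to 289) and each was listed at 0 in 11 of the 12 P18 libraries. Of 6 epididymis and 3 rete or efferent duct markers, 0 were members, with summed values of 0 to 4.83 and 0 to 5.31 per adult library. Of 23 spermatogonial markers in the table, 0 were members.

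The estimated depth behind a value differed strongly between the fractions. Column totals, in M units (1 M is 1000000), were 11.4 and 12.57 in flow-through replicates 1 and 2, and 0.5131 and 0.5257 in J2 replicates 1 and 2. From the spacing of low values that recur, 1 read was estimated at about 4.83 and 2.14 units in flow-through and 0.248 and 0.116 in J2. That gave about 2.36, 5.87, 2.07 and 4.54 M reads in the same order. Smaller values occurred, such as 1.05 for Iqcg in flow-through 1, 0.521 for Prpf38b in flow-through 2 and 0.153 for Shank2 in J2 1. The estimates are thus approximate, and whole reads were recovered in J2 replicate 2 only. On these estimates, a value of 10 stood for about 2.07 and 4.67 reads in flow-through and for 40.3 and 86.3 reads in J2. A value of 0 in flow-through would then say less than a value of 0 in J2.

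J2 replicate 2 stood apart before any gene was compared. It held 22683 genes above 0, against 8650 in J2 replicate 1 and 6874 to 11591 in the 6 P18 J2 libraries. Mitochondrial genes made up 10.8% of its total, against 1.24% in replicate 1 and 0.835% to 1.24% in the P18 J2 libraries. Of its genes, 4666 were above 0 in none of the other 15 libraries, with a median value of 0.348 and a highest of 32. Only 3 members were at 0 in replicate 2, against 546 in replicate 1, 619 in flow-through 1 and 56 in flow-through 2. Across the 4950 members, replicate 2 had a Spearman correlation of 0.359 with J2 replicate 1 and 0.463 with flow-through replicate 2. The flow-through replicates correlated at 0.378. These are descriptions across genes, which are not independent, and all pairs share the authors' scaling. Each result is therefore given for both J2 libraries singly.

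The features that set the J2 fraction most sharply apart from the flow-through were annotations of small or non-coding RNAs with very high values in the flow-through. Whether the reads counted for these features came from the annotated RNAs or from ribosomal RNA was not tested. The test was limma on log2(value + 1) across 9526 genes of all 16 libraries, with Benjamini-Hochberg adjusted p-values and a threshold of 0.05. It called 16 features lower in adult J2 (0.168% of the genes tested), and all 16 are members. Among them were the miRNA annotations Mir6236 and Mir6240, the mitochondrial 12S rRNA mt-Rnr1, and Lars2, the mitochondrial leucyl-tRNA synthetase gene. The mature sequences of both miRNAs are shown because these annotations carried large falls, with the seed (bases 2 to 8) in capitals. They are from RefSeq on GRCm38.p6, from chr5:114851973-114851998 for Mir6240 and from chr9:110281353-110281371 for Mir6236, both on the plus strand.
mmu-miR-6240: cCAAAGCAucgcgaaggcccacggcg
mmu-miR-6236: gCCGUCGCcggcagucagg
Their seeds differ. The hairpin of Mir6240 (chr5:114851948-114852064, plus strand) is shown because a miRNA precursor is itself a folded RNA, with the mature stretch in capitals.
Mir6240 hairpin: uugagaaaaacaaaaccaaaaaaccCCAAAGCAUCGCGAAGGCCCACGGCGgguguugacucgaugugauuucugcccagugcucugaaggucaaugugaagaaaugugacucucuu
The minimum free energy fold of this hairpin by RNAfold had 34 base pairs in 117 bases (58.1% of the bases paired), and its longest uninterrupted helix was 5 pairs.

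Mir6240 stood at 639875 and 359803 in flow-through replicates 1 and 2, and at 246 and 177 in J2 replicates 1 and 2. The difference was -11.16 on the log2 scale (SE 0.76, adjusted p = 1.2e-08). Mir6236 stood at 519590 and 304178 in flow-through and at 113 and 90.0 in J2, a difference of -11.93 (SE 0.62, adjusted p = 3.3e-10). For both annotations the J2 libraries were close to each other and far below both flow-through libraries. The read counts are not specific to the mature miRNA, since the table has 1 value per annotated gene.

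AY036118, a long non-coding RNA annotation on chromosome 17 (chr17:39848112-39898385), was at 1906200 and 1052560 in flow-through and was listed at 0 in both J2 libraries (adjusted p = 4.5e-14). Gm42418 was at 5803900 and 1243980 in flow-through and at 2525 and 3522 in J2 (-9.81, SE 0.86, adjusted p = 8.1e-07). After quantile normalization its difference was -3.70 and not called (adjusted p = 0.63). Together with Lars2 they made up most of the flow-through signal. Gm42418 took 50.9% of flow-through 1 and 9.9% of flow-through 2, and Lars2 took 9.37% and 70.6%. The flow-through libraries thus differed from each other in which feature dominated, while the 10 highest features held 97.4% and 97.55% of the signal.

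Lars2 (chr9:123366927-123462675) was at 1068480 and 8872270 in flow-through and at 7846 and 7426 in J2, a difference of -8.66 (SE 1.54, adjusted p = 0.011). Its fall was not called when any 1 of the 4 adult libraries was left out, with adjusted p from 0.065 to 0.19 and log2 differences from -10.18 to -7.13, nor after quantile normalization (-2.12, adjusted p = 0.8). AA474408 was at 12013 and 71027 in flow-through and at 60.2 and 55.8 in J2 (-8.95, SE 1.42, adjusted p = 0.0033), and lost its call without flow-through 2 (adjusted p = 0.084) or J2 1 (0.086). Gm23935, Gm24245 and Gm24270 had near-identical values, at 243189 and 60865 in flow-through and at 76.8 and 52.8 in J2 for Gm23935, so they are not 3 independent observations (-10.88, SE 0.69, adjusted p = 3.8e-09). How the authors' counting split reads among such copies is not given in the sources used here.

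The other falls were of lower features. Except mt-Rnr1, each feature named in this paragraph was under 10 in both J2 libraries, so the inclusion rule fixed its separation. Gm25732 fell from 749 and 274 to 0.529 and 0.607 (-8.18), Gm24187 from 818 and 246 to 0.156 and 0.385 (-8.47), and Gm25911 from 254 and 69.7 to 0.325 and 0.721 (-6.47). Gm37389 was at 23.9 and 98.0 in flow-through, at 0 in J2 1 and at 0.275 in J2 2 (adjusted p = 0.016). The last lower calls were of a protein-coding gene and an antisense RNA. Shank2, which encodes a synaptic scaffold protein, was at 65.1 and 20.2 in flow-through and at 0.153 and 1.75 in J2 (-4.39, SE 0.89, adjusted p = 0.033). Itpr3os, an antisense RNA annotated beside the calcium channel gene Itpr3, was at 22.7 and 22.3 in flow-through and at 1.25 and 1.27 in J2 (-3.38, SE 0.67, adjusted p = 0.027). Its values were close within each fraction, and it kept its call without each adult library in turn, although the difference was 0.31 after rescaling to a common total. Without flow-through 1, Shank2 (adjusted p = 0.1), Gm25911 (0.064) and mt-Rnr1 (0.059) were not called. Without J2 1, Shank2 (0.21), mt-Rnr1 (0.083) and Gm37389 (0.11) were not called.

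**Figure D1:**
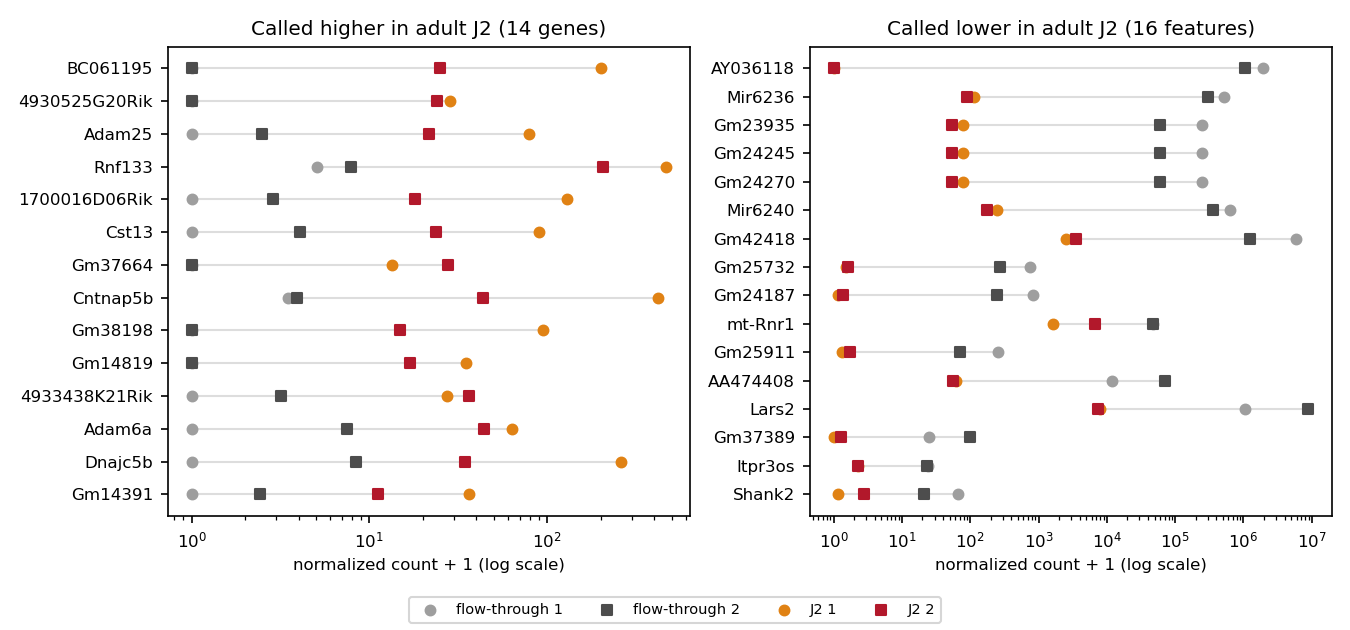
Normalized count plus 1 (log axis) of the 14 genes called higher (left) and the 16 features called lower (right) in adult J2, with 1 point per library and a grey line over the range. In the right panel both J2 libraries lie far left of both flow-through libraries, and in the left panel 12 of the 14 genes have their highest point in J2 replicate 1.

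The test called 14 genes higher in adult J2, or 0.147% of the 9526 genes tested. They include several genes known for expression in male germ cells. All 14 were under 10 in both flow-through libraries (highest 7.41, Dnajc5b) and in every P18 library. They thus entered the comparison and the fit only through their 2 adult J2 values. The inclusion rule therefore fixed their separation, and their low flow-through values are no further support. Rnf133, a membrane-bound ubiquitin ligase of the testis (chr6:23648869-23650305), was at 4.06 and 6.90 in flow-through and at 466 and 206 in J2 replicates 1 and 2. The difference was 5.62 on the log2 scale (SE 0.97, adjusted p = 0.0081), and 5.03 to 6.20 with any 1 adult library left out, with an adjusted p of at most 0.03. Both of its J2 values were far above both flow-through values.

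Adam25, a member of the ADAM family of membrane proteases and adhesion proteins with germ-cell expression, was at 0 and 1.48 in flow-through and at 77.7 and 20.5 in J2 (4.71, SE 0.78, adjusted p = 0.0052). Adam6a, of the same family, was at 0 and 6.44 in flow-through and at 62.0 and 43.2 in J2 (4.27, SE 0.88, adjusted p = 0.039). Cst13, a cystatin protease inhibitor, was at 0 and 3.09 in flow-through and at 89.3 and 22.6 in J2 (4.51, SE 0.84, adjusted p = 0.017). Each of these 3 genes was higher in J2 1 than in J2 2.

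Dnajc5b, a cysteine string protein, was at 0 and 7.41 in flow-through and at 259 and 33.7 in J2 (5.04, SE 1.05, adjusted p = 0.04). Cntnap5b, a contactin-associated cell adhesion protein gene that spans chr1:99772246-100490599, was at 2.49 and 2.93 in flow-through and at 419 and 42.3 in J2 (5.19, SE 0.99, adjusted p = 0.021). 1700016D06Rik was at 0 and 1.87 in flow-through and at 129 and 17.1 in J2 (4.84, SE 0.88, adjusted p = 0.013). In these 3 genes J2 1 was far above J2 2. Gm14391, also protein coding, was at 0 and 1.44 in flow-through and at 35.4 and 10.2 in J2 (3.70, SE 0.77, adjusted p = 0.041).

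The remaining 6 rises were pseudogene, non-coding or predicted annotations. BC061195, annotated as a non-coding pseudogene on the X chromosome (chrX:93183227-93183946), was listed at 0 in both flow-through libraries and at 200 and 24.0 in J2 (adjusted p = 8.7e-04). The long non-coding RNA 4930525G20Rik (chr13:67796594-67830985) was listed at 0 in both flow-through libraries and at 27.5 and 23.1 in J2 (adjusted p = 0.0021), which made its J2 libraries the most alike of the 14. Gm37664 (12.4 and 26.6 in J2), Gm38198 (93.1 and 13.8) and Gm14819 (34.1 and 15.9, a protein-coding annotation in RefSeq) were also listed at 0 in both flow-through libraries. The long non-coding RNA 4933438K21Rik was at 0 and 2.19 in flow-through and at 26.2 and 35.2 in J2 (4.13, SE 0.81, adjusted p = 0.024).

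These 14 calls lean on libraries of another age. Of the 14 genes, 7 were listed at 0 in all 12 P18 libraries, each was at 0 in at least 10 of them, and 0 reached a value of 10 in any (highest 7.17). The P18 libraries therefore add almost no spread for these genes. Fitted on the 4 adult libraries and their 4950 members alone, limma called 0 genes higher (0% of those tested, with 256 at an unadjusted p under 0.05) and 11 lower (0.222%, with 137 at an unadjusted p under 0.05). Of the 16 falls, 11 were called again there, the exceptions being Gm25911, Gm37389, Itpr3os, Shank2 and mt-Rnr1. An exact test of 2 values against 2 cannot go below p = 0.333. With the shared replicate code as a block, 2 of the 14 rises were called again, BC061195 and 4930525G20Rik. Rnf133, Adam25, BC061195 and 4930525G20Rik were called with each of the 4 adult libraries left out in turn. Without the mean trend of the variance, 2 of the 14 rises were called again, BC061195 (adjusted p = 0.015) and Rnf133 (0.012), and not Adam25 (0.1) or 4930525G20Rik (0.08). Without flow-through 1, in which 12 of the 14 were at 0, only these 4 were called again. Without J2 1, 9 of the 14 were, with Dnajc5b (adjusted p = 0.17), Adam6a (0.077), Gm14819 (0.11), Gm14391 (0.086) and Gm38198 (0.11) lost. They were 13 without flow-through 2 (not Gm38198, adjusted p = 0.052) and all 14 without J2 2.

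Far more genes separated the fractions without passing the test. Both J2 values were above both flow-through values for 1123 of the 4950 members (22.7%) and below them for 979 (19.8%), while 2848 overlapped. These shares are the background for the counts above and below given for gene lists. For 2 values against 2, complete separation in either direction has p = 0.333 in an exact test. Many members would therefore separate even with no difference between the fractions. The inclusion rule also fixed the separation of any member under its minimum value in both libraries of a fraction. Genes named below to which this applies include Akap1, Brwd3, Cox7c, Psmb1, Star, Slmapos2 and Snord118 among those above. They include Hist1h2ai, Rsph6a and Acta2 among those below. Separation alone is thus weak evidence for any single gene. The median difference over all members was 0.12 on the log2 scale, -0.05 for J2 replicate 1 and 0.38 for replicate 2, each against the mean flow-through. Both J2 libraries had the same sign for 3201 members (64.7%), and they share the flow-through libraries. These directions are relative to the authors' scaling. Rescaling each library to a common total of non-mitochondrial signal moved the median of all 9526 genes from 0.05 to 2.74, gave 3460 calls higher and 11 lower, and put both J2 values above both flow-through values in 4049 members and below them in 17. Quantile normalization gave 27 higher and 19 lower calls. Unless another scaling is named, the changes here are on the authors' scale, and they are not amounts of RNA.

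Among the genes with large differences that were not called, Akap1, a scaffold protein that ties kinase A and mRNAs to the outer mitochondrial membrane, was at 9.17 and 0 in flow-through and at 456 and 212 in J2 (6.61, SE 1.70, adjusted p = 0.17). Pmfbp1, a protein of the sperm head-to-tail coupling apparatus, was at 4.52 and 14.3 in flow-through and at 503 and 242 in J2 (5.25, SE 1.52, adjusted p = 0.31). In both genes the J2 values were high in either replicate. Brwd3 was listed at 0 in both flow-through libraries and at 216 and 15.5 in J2 (adjusted p = 0.065).

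Other large differences rested more on 1 J2 library. Fsip2, a protein of the fibrous sheath of the sperm tail, was at 0 and 64.7 in flow-through and at 153 and 1041 in J2 (5.63, SE 1.59, adjusted p = 0.29). Nipbl, the cohesin loader, was at 6.59 and 30.8 in flow-through and at 209 and 1959 in J2 (5.37, SE 1.66, adjusted p = 0.43), and had one of the 10 highest values of the J2 fraction on this scale, which is not per length. Cep63, a centrosomal protein, went the other way between replicates, at 0 and 36.9 in flow-through and at 615 and 95.0 in J2 (adjusted p = 0.47).

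**Figure D2:**
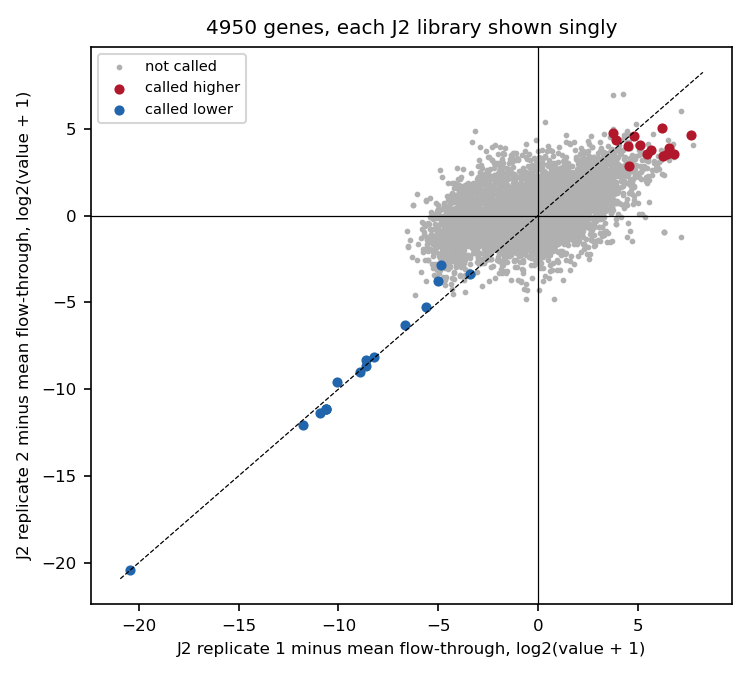
Difference from the mean of the 2 flow-through libraries, log2(value + 1), for J2 replicate 1 (x axis) and J2 replicate 2 (y axis), with 1 point per gene for 4950 genes, genes called higher in red, genes called lower in blue and the dashed line at equality. Of the 14 called rises, 12 lie below the line, and the remaining genes spread widely around both zero lines.

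The feature with the highest value in the J2 fraction was CT010467.1, at 225325 and 214538 in J2 and at 332106 and 171493 in flow-through. It made up 43.9% and 40.8% of the J2 totals and 2.91% and 1.36% of the flow-through totals, yet on the normalized scale its values overlapped (-0.12, SE 0.58, adjusted p = 0.98). Gm24265 (chr5:115489459-115489599) and Gm24407 (chr5:115490254-115490394) are small nuclear RNA annotations that lie near each other on chromosome 5. Gm24265 was at 799 and 1917 in flow-through and at 6471 and 2824 in J2 (adjusted p = 0.8), and Gm24407 was at 564 and 1631 in flow-through and at 4305 and 1862 in J2 (adjusted p = 0.86). Dnah8, a dynein heavy chain of the sperm axoneme, was at 265 and 235 in flow-through and at 485 and 1462 in J2 (adjusted p = 0.75). In these 3 features both J2 values were above both flow-through values, and Dnah8 alone of them was higher in J2 replicate 2.

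Mitochondrial RNAs were the group in which the J2 replicates differed most plainly. The 12S rRNA mt-Rnr1 was at 46990 and 47724 in flow-through and at 1630 and 6614 in J2, a difference of -3.85 on the log2 scale (SE 0.59, adjusted p = 0.0021). Its direction turned to 0.75 after rescaling to a common total and to 1.49 after quantile normalization. The 16S rRNA mt-Rnr2 was at 104451 and 40211 in flow-through and at 1937 and 26870 in J2 (-3.17, SE 0.82, adjusted p = 0.19). Both J2 values were below both flow-through values for each rRNA, but replicate 2 was much nearer to the flow-through.

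The mRNA mt-Nd6 is the one mitochondrial mRNA encoded on the light strand, and encodes a subunit of respiratory complex I. It was at 48.0 and 22.9 in flow-through and at 170 and 343 in J2 (2.82, SE 0.96, adjusted p = 0.57). The heavy-strand mRNA mt-Co1, for a subunit of cytochrome c oxidase, was at 305 and 1585 in flow-through and at 1816 and 17573 in J2 (3.02, SE 0.87, adjusted p = 0.31). Both had both J2 values above both flow-through values, as did mt-Nd3, which was listed at 0 in both flow-through libraries and at 0.826 and 37.4 in J2 and was not a member.

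Of the 11 heavy-strand mRNAs among the members, 7 were below both flow-through libraries in J2 replicate 1, where 40.1% of all members were. In J2 replicate 2, 7 of the 11 were above both, where 41.5% of all members were. All 11 were higher in replicate 2 than in replicate 1, by 1.96 to 649 times with a median of 12.8. Their median difference was -2.93 in replicate 1 and 0.72 in replicate 2. Their flow-through values were not tight either, as all 11 were higher in flow-through 2 than in flow-through 1.

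Single mRNAs show the same spread. The complex I subunit mRNA mt-Nd4 was at 250 and 1159 in flow-through and at 24.4 and 686 in J2, and mt-Nd1 at 884 and 1802 in flow-through and at 145 and 543 in J2. The cytochrome b mRNA mt-Cytb was at 161 and 360 in flow-through and at 43.0 and 599.5 in J2. The cytochrome oxidase mRNA mt-Co2 was at 0 and 297 in flow-through and at 20.8 and 739 in J2, while mt-Co3 was at 212 and 1444 in flow-through and at 338 and 663 in J2. Of these 5, only mt-Nd1 had both J2 values below both flow-through values, and no heavy-strand mRNA passed the test (adjusted p = 0.31 to 0.99). The 10.8% mitochondrial share of J2 replicate 2 moved with these values, and its part in them was not tested.

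Nuclear genes for mitochondrial proteins had the opposite order of the replicates. Of 45 respiratory chain subunit genes encoded in the nucleus, 15 (33.3%) had both J2 values above and 6 (13.3%) below both flow-through values, against 22.7% and 19.8% of all members, and 0 were called. Their median difference was 1.30 in J2 replicate 1 and 0.31 in replicate 2. Cox7c, a small cytochrome oxidase subunit, was at 0 and 6.22 in flow-through and at 72.8 and 15.5 in J2 (adjusted p = 0.66). Since Cox7c was under 10 in both flow-through libraries, the inclusion rule fixed its separation. Tfam, which packages mitochondrial DNA, was at 0 and 14.1 in flow-through and at 86.3 and 73.4 in J2 (adjusted p = 0.67).

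**Figure D3:**
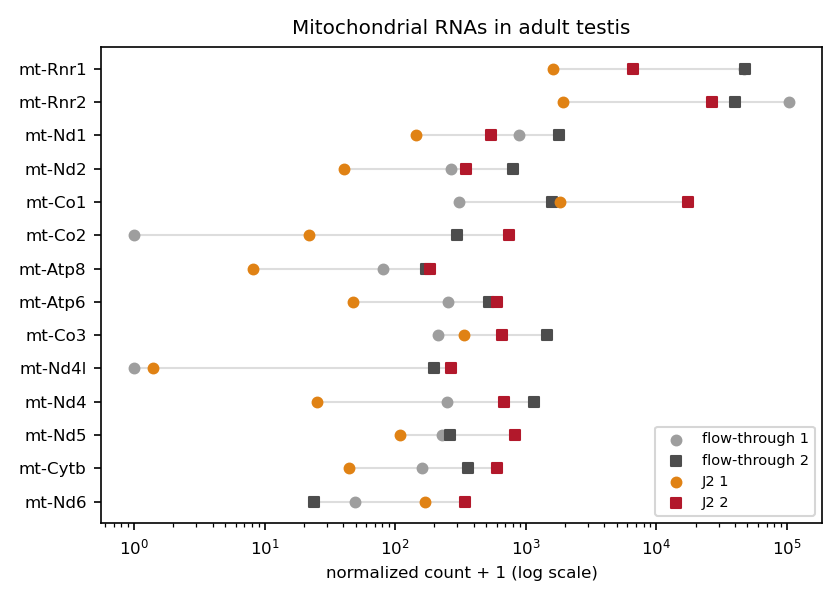
Normalized count plus 1 (log axis) of 14 mitochondrially encoded RNAs in the 4 adult libraries, with 1 point per library and a grey line over the range. J2 replicate 2 lies to the right of J2 replicate 1 in every row, while flow-through replicates 1 and 2 bracket or overlap J2 for most mRNAs.

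Most mRNAs of sperm chromatin packaging overlapped between the fractions. Of 12 spermatid chromatin genes, 0 had both J2 values above and 3 (25%) below both flow-through values. Their median difference was 0.45, with 0.55 in J2 replicate 1 and -0.14 in replicate 2. It was -0.89 over those that reached 50 in at least 2 adult libraries. Prm1 was at 524 and 855 in flow-through and at 411 and 319 in J2 (-0.89, SE 1.23, adjusted p = 0.95). Prm2, the other protamine, was at 799 and 531 in flow-through and at 627 and 137 in J2 (adjusted p = 0.94). Tnp2 was at 503 and 288 in flow-through and at 256 and 154 in J2, and Tnp1 at 176 and 95.2 in flow-through and at 289 and 172 in J2 (adjusted p = 0.95 for each). The protamine and transition protein mRNAs thus did not move one way, and all were higher in J2 1 than in J2 2.

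Of 24 sperm tail genes, 8 (33.3%) were above and 5 (20.8%) below. Their median was 0.15, with 0.54 in J2 replicate 1 and 0.04 in replicate 2. Spa17, a sperm autoantigen that binds kinase A anchoring proteins, was at 16 and 44.2 in flow-through and at 422 and 107 in J2 (adjusted p = 0.69). Smcp, a protein of the sperm mitochondrial capsule, was at 117 and 142 in flow-through and at 509 and 211 in J2. Akap4, the main fibrous sheath protein, was at 412 and 312 in flow-through and at 291 and 737 in J2, and Odf1 of the outer dense fibres was at 78.2 and 145 in flow-through and at 67.5 and 101 in J2. Spa17 and Smcp separated by fraction, and Akap4 and Odf1 did not.

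Of 22 acrosome genes, 10 (45.5%) had both J2 values above both flow-through values and 1 (4.55%) below, against 22.7% and 19.8% of all members, and 0 were called. Their median difference was 0.59 in J2 replicate 1 and 0.94 in replicate 2. Over those that reached 50 in at least 2 adult libraries the list median was 0.32, against 0.43 for all such members. Spaca1, a protein of the acrosomal membrane, was at 0 and 5.62 in flow-through and at 29.5 and 29.9 in J2 (3.58, SE 1.01, adjusted p = 0.29). Izumo2 was at 0 and 5.08 in flow-through and at 47.2 and 12.6 in J2 (adjusted p = 0.17). Spink2, an inhibitor of acrosin, was at 76.3 and 44.9 in flow-through and at 790 and 167 in J2 (adjusted p = 0.66), while Zpbp, a zona pellucida binding protein, was the 1 below, at 164 and 97.9 in flow-through and at 33.1 and 75.7 in J2. Spaca1 had the most even J2 pair of these 4. Spaca1 and Izumo2 were under 10 in both flow-through libraries, so the inclusion rule fixed their separation.

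Of 48 axoneme genes, 11 (22.9%) were above and 8 (16.7%) below, with medians of 0.24 and 0.67 in J2 replicates 1 and 2. Iqcg was at 1.05 and 14.5 in flow-through and at 371 and 35.0 in J2, and the radial spoke gene Rsph6a was at 58.1 and 14.7 in flow-through and at 0.578 and 3.93 in J2. Of 40 Spata and Tex genes, named for spermatogenesis or testis expression, 8 (20%) were above and 5 (12.5%) below. Their median was 0.78, with 0.50 in J2 replicate 1 and 0.47 in replicate 2. It was -0.06 over those that reached 50 in at least 2 adult libraries. Of 19 genes of germ-cell energy metabolism, 5 (26.3%) were above and 7 (36.8%) below. The median of this list was -0.89, with -0.68 in J2 replicate 1 and 0.15 in replicate 2.

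Values of 4 energy genes show both directions. Ldhc, the germ-cell lactate dehydrogenase, was at 392 and 159 in flow-through and at 769 and 954 in J2 (1.77, SE 0.67, adjusted p = 0.66). Pgk2, the germ-cell phosphoglycerate kinase, was at 48.1 and 107 in flow-through and at 521 and 221 in J2 (adjusted p = 0.82). The glycolytic enzyme gene Aldoa was at 86.8 and 54.5 in flow-through and at 10.3 and 13.9 in J2 (adjusted p = 0.72), and the pyruvate kinase gene Pkm was at 66.4 and 45.6 in flow-through and at 0.192 and 21.7 in J2 (adjusted p = 0.66). Ldhc and Pgk2 had both J2 values above the flow-through and Aldoa and Pkm both below, and 0 of the 4 passed the test.

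Replication-dependent histone mRNAs were mostly below the flow-through in J2 replicate 2 and not in replicate 1. Of 30 replication-dependent histone genes, whose mRNAs end in a stem-loop in place of a poly(A) tail, 0 had both J2 values above and 8 (26.7%) below both flow-through values, against 22.7% and 19.8% of all members, with 0 called. Their median difference was -0.15 in J2 replicate 1 and -2.80 in replicate 2. In replicate 2, 27 of the 30 were below both flow-through libraries, against 30.1% of all members. In replicate 1, 10 of the 30 were below both, against 40.1% of all members, and 5 were above both, against 38.1%. Hist1h2bb was at 117 and 55.1 in flow-through and at 5.28 and 11.3 in J2 (-3.21, SE 0.82, adjusted p = 0.17), and Hist1h2ai at 72.3 and 28.2 in flow-through and at 2.08 and 3.11 in J2 (-3.70, SE 0.95, adjusted p = 0.17). These 2 were low in either J2 library, and histone copies share much sequence, so that reads may be split among them.

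Of 11 germ-cell histone variants, 0 were above and 2 (18.2%) below, the latter near the 19.8% of all members. The testis H2B variant Hist1h2ba was at 6384 and 2018 in flow-through and at 1416 and 276 in J2 (-2.52, SE 0.79, adjusted p = 0.46). The testis linker histone Hist1h1t was at 894 and 484 in flow-through and at 227 and 70.7 in J2 (adjusted p = 0.46). Each was lower in J2 2 than in J2 1.

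Genes for small RNA pathways and RNA storage in germ cells showed no called member. Of 18 piRNA pathway genes, 5 (27.8%) were above and 2 (11.1%) below. Mael, which acts in piRNA-guided transposon control, was at 88.5 and 157 in flow-through and at 360 and 369 in J2 (1.62, SE 0.80, adjusted p = 0.77). Piwil1, a piRNA-binding PIWI protein, was at 117 and 58.9 in flow-through and at 4.60 and 43.2 in J2 (adjusted p = 0.77). Of 20 RNA storage genes, 5 (25%) were above and 0 below. Dazl, an RNA-binding translational regulator of germ cells, was at 35.6 and 20.0 in flow-through, at 0 in J2 1 and at 132 in J2 2.

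Of 19 genes for proteins that bind or process double-stranded RNA, 4 (21.1%) were above and 3 (15.8%) below, with medians of -0.52 and 0.51 in replicates 1 and 2. Adad1, a testis protein of the adenosine deaminase family, was at 60.4 and 46.6 in flow-through and at 108 and 81.9 in J2 (adjusted p = 0.95). Of the 32 genes listed for sensing double-stranded RNA and the interferon response, 1 was a member, Dhx58, at 11.8 and 6.96 in flow-through and at 36.7 and 7.91 in J2. The summed value of the 32 was 47.5 to 84.5 per library. The editing enzyme gene Adar was at 2.45 and 2.05 in flow-through and at 0 and 2.40 in J2, and Dicer1 at 0 and 3.90 in flow-through and at 0 and 13.7 in J2, so neither was a member. Dicer1 is the gene removed in the P18 knock-out, and the adult libraries are labelled wild type.

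Of 20 meiosis genes, 5 (25%) were above and 4 (20%) below. Syce2, of the synaptonemal complex, was at 2.80 and 3.90 in flow-through and at 98.2 and 65.9 in J2 (adjusted p = 0.69), and the meiotic cohesin gene Rec8 was at 17.6 and 22.4 in flow-through and at 0 and 4.52 in J2 (adjusted p = 0.59). They separated the fractions in opposite directions. Each was under 10 in both libraries of 1 fraction, so the inclusion rule fixed its separation. The list's median was -0.62 in J2 1 and 0.80 in J2 2.

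Housekeeping genes gave no common direction. Of 66 ribosomal protein genes, 14 (21.2%) were above and 12 (18.2%) below, near the shares of all members. Their median difference was 0.52 in J2 1 and -0.12 in J2 2. Over the same 66 genes in wild-type P18 the median was 1.85, a difference between the ages that was not tested for the list. Of 27 proteasome genes, 7 (25.9%) were above and 4 (14.8%) below. Psmb1, a subunit of the core particle, was at 2.03 and 4.69 in flow-through and at 351 and 44.1 in J2 (4.92, SE 1.09, adjusted p = 0.067), and Psma6 was at 14.5 and 18.4 in flow-through and at 133 and 174 in J2 (adjusted p = 0.27).

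**Figure D4:**
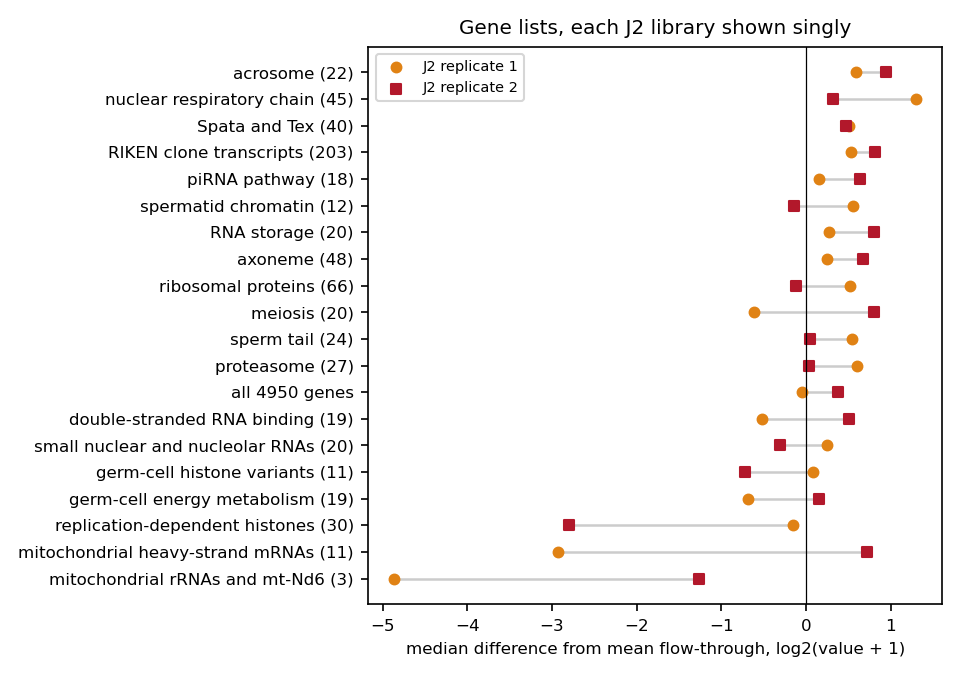
Median difference from the mean of the 2 flow-through libraries, log2(value + 1), for 19 gene lists and all 4950 genes, with the number of members in parentheses, circles for J2 replicate 1 and squares for J2 replicate 2. The mitochondrial heavy-strand mRNAs run from -2.93 to 0.72 between the replicates and the replication-dependent histones from -0.15 to -2.80.

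Non-coding and poorly annotated transcripts did not share 1 direction. Against 22.7% above and 19.8% below among all members, genes named by RIKEN clone numbers were above more often and below less often, while predicted genes lay near those shares. Of 203 genes named by RIKEN clone numbers, 69 (34%) had both J2 values above and 20 (9.85%) below both flow-through values, with 3 called higher, 0 called lower and medians of 0.53 and 0.81 in replicates 1 and 2. Of 179 predicted genes with Gm symbols, 43 (24%) were above and 28 (15.6%) below, with 4 called higher and 8 lower. Among all 4950 members, 14 were called higher and 16 lower. The 8 lower calls of predicted genes include the near-identical Gm23935, Gm24245 and Gm24270, so they are not 8 independent observations. Of 99 members annotated as long non-coding RNA, 26 (26.3%) were above and 8 (8.08%) below. Of 29 annotated as small nuclear RNA, 9 (31%) were above and 8 (27.6%) below, and of 38 annotated as rRNA, 0 were above and 2 (5.26%) below.

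Kcnq1ot1, an imprinted antisense RNA that is retained in the nucleus (chr7:143213111-143296547), was at 6.36 and 15.6 in flow-through and at 69.8 and 261 in J2 (3.62, SE 1.40, adjusted p = 0.66). Malat1, a nuclear speckle RNA, was at 71.4 and 181 in flow-through and at 47.1 and 411 in J2 (adjusted p = 0.98). Kcnq1ot1 separated the fractions and Malat1 did not, and both were higher in J2 2. Among antisense RNAs with symbols ending in os, Slmapos2 was at 9.40 and 4.25 in flow-through and at 143 and 42.9 in J2 (adjusted p = 0.77), while Itpr3os was the called fall given above.

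Of 20 named small nuclear and nucleolar RNAs, 4 (20%) were above and 4 (20%) below. Snord118, the U8 small nucleolar RNA, was at 7.89 and 3.55 in flow-through and at 39.0 and 57.4 in J2 (adjusted p = 0.72). Rpph1, the RNA of RNase P, was at 222 and 1482 in flow-through and at 32.3 and 73.2 in J2 (-3.53, SE 0.97, adjusted p = 0.27). Of the 5S rRNA copies, 28 were members, at 0 to 9.8 in flow-through 1, 19.5 to 84.6 in flow-through 2, 0.596 to 65.6 in J2 1 and 28.1 to 85.9 in J2 2. In all, 56 members shared all 4 values with another member, in 13 sets.

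Markers of other cell types showed no common shift. Of 11 Sertoli cell markers among the members, 4 (36.4%) were above and 1 (9.09%) below. Of 9 Leydig cell markers, 2 (22.2%) were above and 2 (22.2%) below, among them Star, the steroidogenic acute regulatory protein, at 0 and 2.83 in flow-through and at 31.1 and 31.7 in J2 (adjusted p = 0.69). Of 4 peritubular myoid markers, 1 was above and 2 below, and Acta2, smooth muscle actin, was at 128 and 27.9 in flow-through and at 5.43 and 4.83 in J2 (adjusted p = 0.3). Summed over all 14 myoid markers in the table, the values were 313, 113, 87.0 and 72.5 in flow-through 1 and 2 and J2 1 and 2. Immune markers summed to 120, 43.6, 60.1 and 67.6 in the same order. The part of other cell types in the differences was not tested.

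The gap between the J2 replicates followed gene span. The 4510 protein-coding members were ranked by the length of the gene on the genome and cut into 5 classes of 902 genes. In the shortest class (0.407 to 10 kb) the median difference from flow-through was 0.53 in J2 replicate 1 and -0.01 in replicate 2. In the longest class (85.5 to 2270 kb) it was -0.89 in replicate 1 and 0.41 in replicate 2. The median gap of replicate 2 minus replicate 1 was -0.56, -0.01, 0.32, 1.05 and 1.27 from the shortest to the longest class. The same gap between the flow-through replicates was -0.01, -0.03, 0.04, 0.07 and -0.29. In replicate 1, 4.88% of the shortest and 16.7% of the longest class were at 0, against 0% in replicate 2.

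Adult J2 replicate 1 lay within the range of the P18 J2 libraries in this respect, and replicate 2 within that of the flow-through. The median level of the longest class minus that of the shortest was -1.07 in J2 replicate 1 and 0.47 in replicate 2, against -1.34 to -0.32 in the 6 P18 J2 libraries and -0.19 to 0.67 in the 8 flow-through libraries. Across the 4510 genes, span and the replicate gap had a Spearman correlation of 0.292, a description across genes that share the libraries. Annotated span is not transcript length, and which part of a gene the reads came from is not in the table. The part of RNA quality or of unspliced RNA in this gap was not tested.

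**Figure D5:**
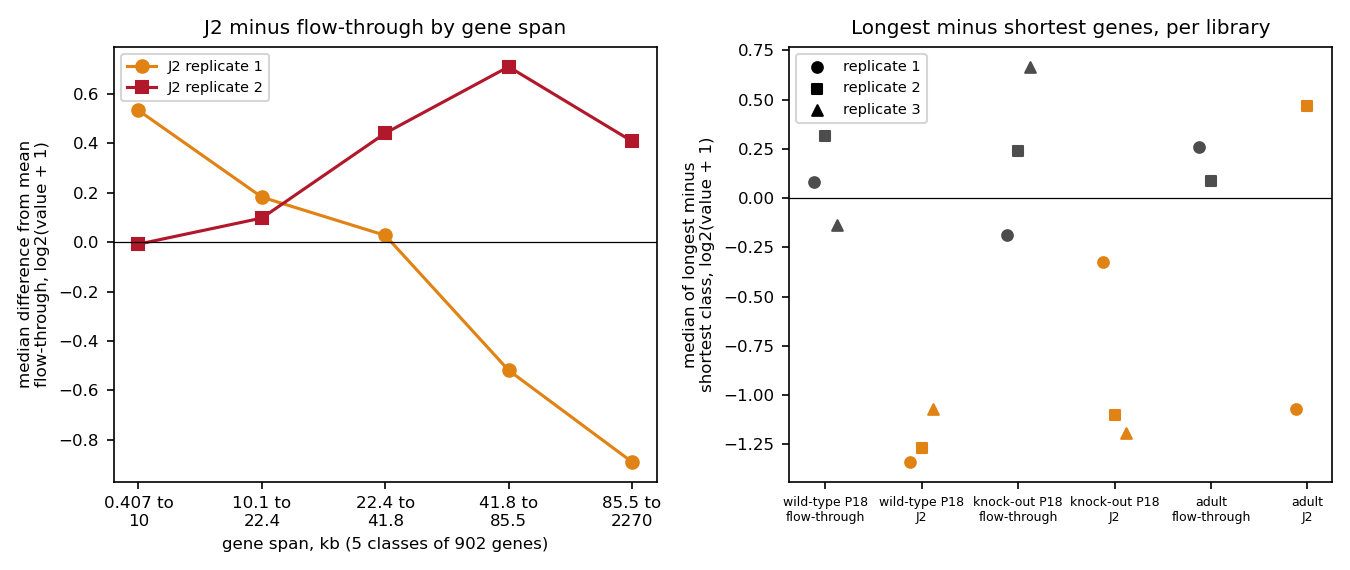
Left, median difference from the mean flow-through, log2(value + 1), in 5 classes of gene span for J2 replicate 1 (circles) and replicate 2 (squares). Right, median level of the longest class minus that of the shortest in each of the 16 libraries (grey flow-through, orange J2, symbols for replicates), where adult J2 replicate 2, at 0.47, is the J2 library above 0.

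Single genes show how far the replicates could part. Smg1, a kinase of nonsense-mediated decay, was at 103 and 42.9 in flow-through, at 0 in J2 1 and at 157 in J2 2. Kpna2, a nuclear import receptor, was at 0 and 76.4 in flow-through, at 0 in J2 1 and at 261 in J2 2. In the other direction, Gm28635 was at 3.25 and 12.3 in flow-through, at 1070 in J2 1 and at 2.23 in J2 2. The U1 small nuclear RNA copy Rnu1b6, which had the same values as Gm24830 and Gm26232, was at 0 and 20.4 in flow-through, at 366 in J2 1 and at 1.39 in J2 2. None of these genes passed the test (adjusted p = 0.85 for Smg1, 0.96 for Kpna2, 0.86 for Gm28635 and 0.89 for Rnu1b6).

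The adult difference was set against the same difference in wild-type P18 testis by an age by fraction interaction over 9526 genes. It was significant for 0 genes (0%), with 514 at an unadjusted p under 0.05 and a smallest adjusted p of 0.18. BC061195 and 4930525G20Rik were at that smallest value, with interactions of 5.96 (SE 1.12) and 5.20 (SE 0.92). For Rnf133, listed at 0 in all P18 libraries, the adjusted p was 0.35. For Mir6240 the difference was -11.16 in adults and -11.93 in wild-type P18 (interaction 0.77, SE 0.98, adjusted p = 0.98), and for mt-Rnr1 it was -3.85 and -5.45 (interaction 1.60, SE 0.76, adjusted p = 0.92). The interaction gave 56 calls without adult flow-through 2, 30 without adult J2 2, 2 without adult J2 1 and 0 without adult flow-through 1. Age, strain and animal cannot be told apart in this contrast.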

How the data were processed

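The authors deposited 1 table of signal values (normalized counts), indexed by Ensembl gene and with a column for each library. The submitters' processing notes name FastQC, Trimmomatic, Salmon, DESeq2 and mm10, with no version, setting or role. Symbols and coordinates came from tables of RefSeq on GRCm38.p6, which gave 4938 of the 4950 members a symbol and 4738 coordinates. Every column matched a library, with 0 left over and 0 identical pairs.

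The fit used limma 3.58.1 under R 4.3.3 on log2(value + 1) (6 group means over 16 libraries, empirical Bayes with a mean trend, Benjamini-Hochberg adjustment, two-sided, threshold 0.05), on 9526 genes with a value of at least 10 in 2 or more libraries. Log2 differences are on that scale, which understates low genes, and none is printed for genes at 0 in both libraries of a fraction. The script was tested on simulated data. RNA folds are from RNAfold 2.7.2. The worth of 1 read was estimated from the spacing of low values. Whole reads were recovered in adult J2 replicate 2 only, so no count test was run.

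The members, the 40 gene lists and the tests were chosen with earlier results of these data known. Genes are named by these rules: called genes, up to 15 a direction (Shank2, the 16th fall, was added after its value was seen), the 10 largest differences each way among non-overlapping genes with a mean of 50 or more, the 10 highest features of each fraction, up to 4 genes with the largest differences and the highest members per list, fixed genes, and the 10 largest replicate gaps each way. Alternatives covered the libraries fitted, scaling, pseudocount, filter, genes fitted, replicate block, variance trend and leaving out each adult library. Libraries with a shared replicate code were not treated as paired in the main fit. The correlation of their deviations was -0.03 to 0.03 over 8 pairs of libraries, which cannot show whether they are paired.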

Additional observations from a re-analysis of the deposited data

How the results depend on the processing

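Against the 14 rises, the alternatives called 0 with only the 4 adult libraries, 3460 with a common total, 27 after quantile normalization, 38 with a pseudocount of 10, 2 with a minimum of 50, 195 with no filter, 46 with only the members fitted, 2 with no mean trend, and 7 to 74 with each adult library left out. The 16 falls became 56 with no filter, 25 with only the members fitted and 11 to 44 with each adult library left out, the highest count being without J2 replicate 2. The interaction count of 0 became 0 to 56 with each adult library left out. Both J2 values were above both flow-through values in 1123 members, and in 315 of 980 with a minimum of 50, 4049 with a common total, 1885 for J2 replicate 1 alone and 2055 for replicate 2 alone (the last 2 added after seeing the data). They were below in 979, and in 168, 17, 1987 and 1492 in the same order. The difference turned positive for mt-Rnr1 (0.75 with a common total, 1.49 after quantile normalization) and for Itpr3os (0.31 with a common total). The causes were not tested. A fraction left with 1 adult library is assumed to vary like the other groups. Median of ratios scaling gave 12 rises and a pseudocount of 0.5 gave 10.

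With the replicate code as a replicate block, 2 genes were called higher (BC061195, adjusted p = 0.009, and 4930525G20Rik, 0.017, but not Rnf133, 0.07, or Adam25, 0.062) and 13 lower. The correlation of deviations between libraries of 1 code was 0.03 in adults, and the main fit did not use the codes. With 2 libraries per adult group, this correlation cannot show whether the libraries are paired.

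With a common total, the list medians relative to all members turned sign for proteasome (from 0.02 to -0.19), meiosis (0.16 to -0.18), edited transcripts (-0.43 to 0.03), Leydig (-0.27 to 0.16) and immune markers (-0.10 to 0.11). The ribosomal protein median was -0.25 over members reaching 50. Flow-through depth limits what can be said of low genes, since a value of 10 there was estimated to stand for about 2.07 and 4.67 reads. The count test on whole reads was not run.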
